A study of Mus musculus with 6 samples.

Results

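The genes described here are 38 core regulators of the mammalian cell division cycle: cyclins, cyclin-dependent kinases (CDKs), CDK inhibitors, the E2F and RB families, and the phosphatases, kinase and ubiquitin ligase factors that control them. They were chosen by gene symbol, and all 38 were found among the 21853 genes of the deposited table, each on 1 row. The cells were embryonic fibroblasts of C57BL/6J mice carrying an xCT knockout, with an age of 12 days on the labels. Every library carries the knockout of xCT (Slc7a11), the cystine importer whose loss leaves cells prone to ferroptosis, a death driven by iron and lipid peroxidation. The control libraries (n = 3) came from cells given water, and the RCE libraries (n = 3) from cells given red clover extract. The sources used here do not give the dose, the time of exposure or the culture medium, nor whether replicates were separate cultures. The p-values therefore rest on how much these 6 libraries vary, and that variation may be technical. Values are FPKM, fragment numbers divided by transcript length and by library depth, so levels of different genes can be set side by side.

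The cell cycle is driven by kinases that act only when bound to a cyclin. D-type cyclins with CDK4 or CDK6 act in G1 phase and phosphorylate RB and its relatives p107 and p130, which otherwise hold E2F transcription factors in check. Released E2F activity raises transcripts of cyclin E, cyclin A, replication genes and several E2F and RB family members themselves. Cyclin E with CDK2 acts at entry into S phase, and cyclins A and B with CDK1 act up to mitosis. INK4 proteins inhibit CDK4 and CDK6, while the CIP/KIP proteins p27 and p57 bind cyclin and kinase together. In fibroblasts, growth factors act mainly on D-type cyclins and on p27, and INK4 products accumulate with stress and time in culture.

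Depth recovered from steps between low values was 45700000 to 59000000 fragments per library. Slc7a11 was at 0.007 to 0.037 FPKM in all 6 libraries, and its groups were not told apart (exact permutation test on 3 against 3 libraries, 2-sided p = 0.2, with 0.1 the lowest attainable). The 10 fibroblast markers all reached 1 FPKM, with a summed level of 4168 to 4299 FPKM in control and 3850 to 3944 FPKM after extract. Of 30 markers of 6 other cell types, summed levels in control and RCE libraries were 6.50 to 7.04 and 5.71 to 6.49 FPKM for leukocytes, 3.18 to 3.53 and 2.76 to 3.03 for endothelium, 1.98 to 2.89 and 1.25 to 2.41 for epithelium, and 0.009 to 0.291 and 0.024 to 0.195 for erythroid cells. Sums were higher with the extract for muscle (37.7 to 44.3 against 49.5 to 57.9 FPKM, nearly all Des, with Myod1 listed at 0 everywhere) and for neural markers (44.5 to 48.6 against 58.9 to 63.8 FPKM, mostly Nes). The part of these markers in the results below was not tested.

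With the extract, 4 of the 8 cyclins and kinases of S phase entry and later stages rose (Ccne1, Cdk2, Ccna2 and Ccnb2) and 0 fell. Of the 6 inhibitors among the 38 genes, transcripts of p27 and p57 fell and that of p15 rose, with a median change of 0.01. The abundant D-type cyclins and CDK4 did not pass the test. With median-of-ratios scaling, explained below, 1 of those 8 cyclins and kinases (Ccna2) was called and p15 lost its call. The p27 and p57 calls held with that scaling, and Ccnd2 (cyclin D2) was called lower. Neither p27 nor p57 stayed called once RCE library 2 or RCE library 3 was dropped. Among the genes tested, Fbxo5 (EMI1) changed by 0.53, Ccna2 (cyclin A) by 0.52, Rbl1 (p107) by 0.41 and Cdkn1c (p57) by -0.44. Changes are given as RCE minus control on the log2(FPKM + 1) scale, which understates the change of low genes. Of the 38 genes, 35 averaged 1 FPKM or more across libraries and were tested by limma with Benjamini-Hochberg adjustment over 10870 genes. At an adjusted p below 0.05, 11 of the 35 (31.4%) were higher and 2 (5.71%) lower. The background over all genes tested was 17.6% higher and 6.77% lower. Fbxo5 was under 1 FPKM in every control library and passed the filter through its RCE values, so its change is no support for a count over the tested genes. The median change of the 35 genes, 0.08, was that of all genes tested, 0.08, so by its median alone the list did not sit apart.

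**Figure D1:**
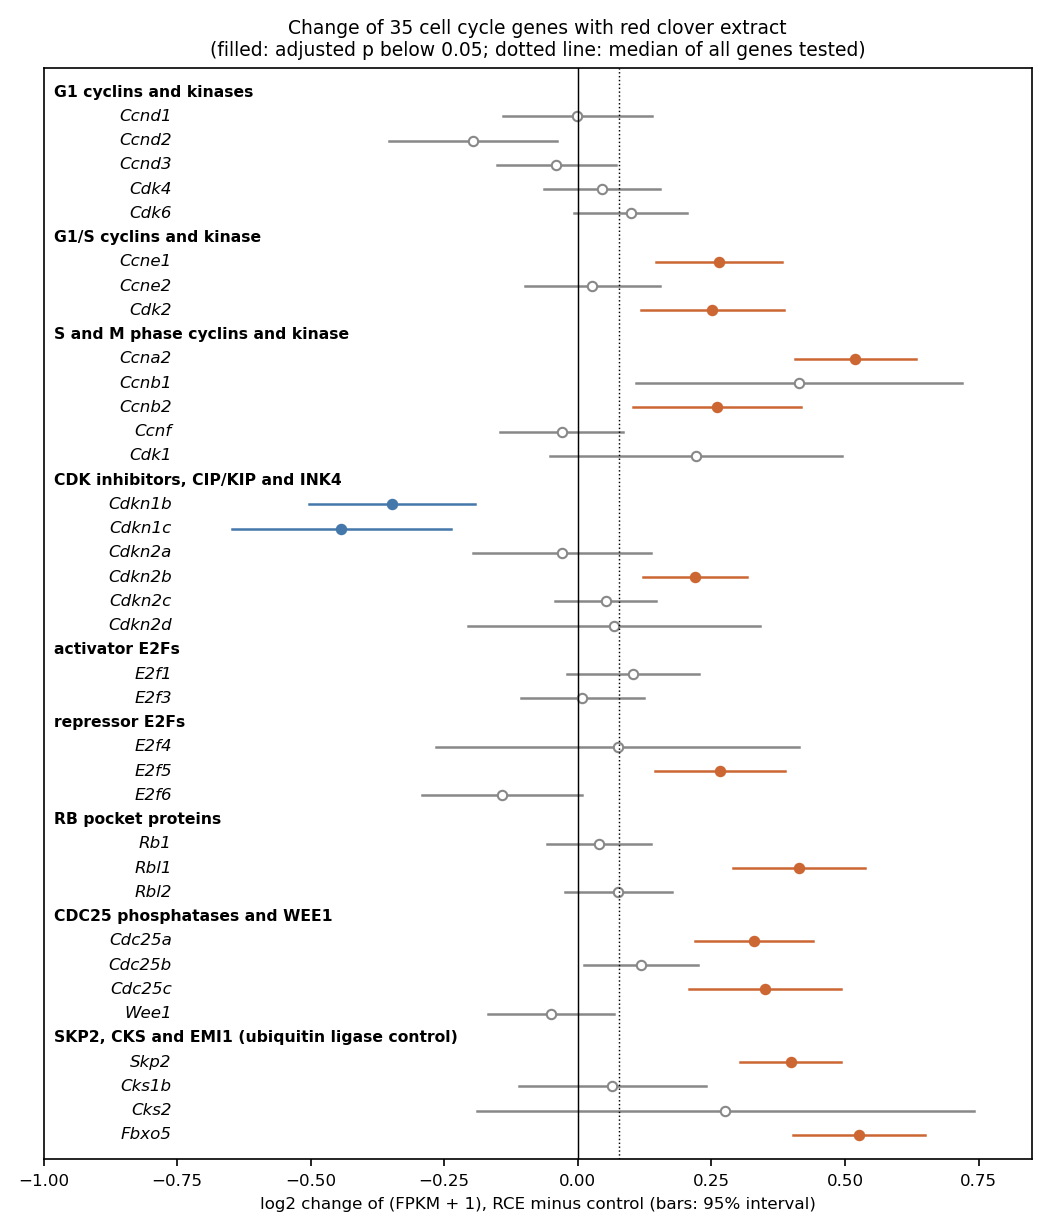
Log2 change of FPKM + 1, RCE minus control, on the horizontal axis for each of the 35 tested genes, ordered by role, with the 95% interval of limma as a bar. Filled points passed an adjusted p of 0.05 (orange higher, blue lower), and the dotted line is the median of all genes tested, 0.08. G1 cyclins and kinases lie between -0.20 and 0.10, while Ccna2 and Fbxo5 lie furthest to the right on this scale with 1 added and Cdkn1b and Cdkn1c furthest to the left.

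How many of these genes pass depends on the fit. Libraries with the same replicate number deviated together, but numbers 2 and 3 did so across numbers as well, so only number 1 was set apart. With the replicate number as a block 18 of 35 were higher and 4 lower (51.4% and 11.4%), against 46.6% and 15.9% of all genes, so those shares are near the background. All 13 genes called without the block were among them. Of the 38 genes, 17 share exon sequence with another annotated gene, mostly on the opposite strand, and 5 of these were called. FPKM shift when a few abundant transcripts change, and median-of-ratios scaling moved the median of all genes from 0.08 to 0.00. With that scaling 6 of 35 were higher and 4 lower (17.1% and 11.4%), against 8.38% and 9.96% of all genes. Block and scaling together gave 14 higher and 8 lower, against 26.4% and 27.7% of all genes. Without both replicate 1 libraries 15 were higher and 4 lower, against 40.1% and 13.6%. The 6 genes called higher with the scaling alone were Ccna2, Rbl1, Cdc25a, Cdc25c, Skp2 and Fbxo5, whose calls held in each of the 18 alternatives that tested them. In 15 of the 35 genes all RCE values lay above all control values, and in 4 all lay below (42.9% and 11.4%, against 31.2% and 10.9% of all genes tested). Fbxo5, which passed the filter through its RCE values, is in each of these counts of higher genes and adds no support to them. Counts for single roles below rest on few genes and are to be read beside these shares of all genes.

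In bulk RNA, more cells in a phase of the cycle and more transcript per cell cannot be told apart, and this holds for every change below.

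The G1 regulators were the most abundant group. Ccnd2, cyclin D2, was the highest of the 38 genes, at 188, 202 and 213 FPKM in controls 1 to 3 and 166, 180 and 179 FPKM in the matching RCE libraries. All RCE values lay below all control values, by a log2 change of -0.20 (SE 0.07, 95% interval -0.35 to -0.04). This did not pass without the block (adjusted p = 0.074) and passed with it (adjusted p = 0.000614) and with median-of-ratios scaling (-0.28, adjusted p = 0.0208). Over its 19 alternatives the adjusted p ran from 9.71e-05 to 0.252. Cyclin D2 made up 70.8 ± 2.18% of summed D-type cyclin FPKM in control and 68.1 ± 1.43% with the extract (SD, n = 3).

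Ccnd1 (ENSMUSG00000070348, chromosome 7, 144929931 to 144939925 on mm10), cyclin D1, the usual readout of growth factor signalling to the cycle, was at 59.6, 54.8 and 54.2 FPKM in control and 59.0, 55.2 and 54.4 FPKM in the matching RCE libraries. The groups overlapped almost completely. Its log2 change was 0.00 to 2 decimals (-0.0008, 95% interval -0.14 to 0.14, adjusted p = 0.994), and it was -0.09 with the block and median-of-ratios scaling together (adjusted p = 0.0164, range over 19 alternatives 0.0164 to 0.997). Ccnd3, cyclin D3, was at 26.4 ± 0.913 and 25.7 ± 0.75 FPKM (SD, n = 3, log2 change -0.04, adjusted p = 0.577). It too was called lower with the block and that scaling together (-0.12, adjusted p = 0.0123, range 0.0123 to 0.853).

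CDK4 and CDK6 are the kinase partners of the D-type cyclins, and Cdk4 was the more abundant. Cdk4 was at 112, 117 and 117 FPKM in control and 116, 120 and 121 FPKM after extract, overlapping, with a log2 change of 0.04 (95% interval -0.06 to 0.15, adjusted p = 0.516). Cdk6 was at 7.29, 7.82 and 7.58 FPKM in control and 8.39, 7.96 and 8.16 FPKM after extract, without overlap. Its log2 change of 0.10 did not pass (adjusted p = 0.153) and was called with the block (adjusted p = 0.0477, range over 19 alternatives 0.0477 to 0.861). In limma, 0 of the 5 G1 cyclins and kinases were higher and 0 lower without the block (0 and 1 by unadjusted p at the same threshold, 1 and 1 with the block, 0 and 1 with median-of-ratios scaling).

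At the step from G1 into S phase, 2 of 3 genes rose. Ccne1 (ENSMUSG00000002068, chromosome 7, 38097984 to 38107534), cyclin E1, was at 10.6, 9.77 and 9.85 FPKM in control and 12.6, 12.4 and 11.9 FPKM in the matching RCE libraries, with no overlap (log2 change 0.26, SE 0.05, adjusted p = 0.0124). Its kinase partner Cdk2 was at 8.19, 7.38 and 7.66 FPKM in control and 9.87, 9.42 and 8.93 FPKM after extract, again without overlap (0.25, SE 0.06, adjusted p = 0.0221). The second cyclin E gene, Ccne2, was at 2.19 ± 0.178 and 2.25 ± 0.0812 FPKM and overlapped (0.03, 95% interval -0.10 to 0.15, adjusted p = 0.747). Neither Ccne1 nor Cdk2 kept its call under median-of-ratios scaling (adjusted p = 0.0698 and 0.116) or quantile normalization (0.0558 and 0.138). Nor did either pass once control replicate 2 (0.0547 and 0.082), control replicate 3 (0.0561 and 0.0819) or RCE replicate 2 (0.0625 and 0.0878) was left out.

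Cyclin A was the S and M phase cyclin whose call held with median-of-ratios scaling. Ccna2 (ENSMUSG00000027715, chromosome 3, 36564865 to 36572150), which pairs with CDK2 in S phase and with CDK1 later, was at 3.74, 3.66 and 3.46 FPKM in control and 5.89, 5.55 and 5.43 FPKM in the matching RCE libraries. Every RCE library lay above every control library, and the mean rose 1.55-fold (log2 change 0.52, SE 0.05, 95% interval 0.41 to 0.63, adjusted p = 0.00115). Its change ran from 0.42 to 0.62 over 18 alternatives. An exon of Ccna2 overlaps one of Exosc9 on the opposite strand, a more abundant gene (19.0 ± 2.58 FPKM in control) whose own change was 0.02 (adjusted p = 0.931), and the sources used here do not say whether counting used strand.

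The B-type cyclins, activators of CDK1 at mitosis, were higher in each same-numbered pair of libraries. Ccnb2 was at 5.28, 4.39 and 4.90 FPKM in control and 6.27, 5.80 and 5.95 FPKM after extract (0.26, SE 0.07, adjusted p = 0.0326). The groups did not overlap, but this was the least stable of the calls. It ended in 8 of 19 alternatives: when low genes were kept in (adjusted p = 0.0519), under median-of-ratios scaling (0.133) or quantile normalization (0.197), and without control replicate 2 (0.0828), control replicate 3 (0.0937), RCE replicate 1 (0.0627), RCE replicate 2 (0.0866) or RCE replicate 3 (0.0918).

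Ccnb1 was at 3.88, 4.89 and 4.23 FPKM in control and 4.91, 6.90 and 6.61 FPKM after extract. Its lowest RCE value was just above its highest control value, and the change of 0.41 missed the threshold (95% interval 0.11 to 0.72, adjusted p = 0.059). With the block it passed (adjusted p = 0.000269), and it also passed without RCE replicate 1 (0.54, adjusted p = 0.0103) and with GC correction (0.39, adjusted p = 0.0384), with a range of 0.000164 to 0.177 over 19 alternatives. The low end of that range came from array weights, a fit that stopped before reaching its convergence tolerance. The kinase Cdk1 was at 2.63, 3.50 and 3.48 FPKM in control and 3.29, 4.22 and 4.17 FPKM after extract, which overlapped (0.22, adjusted p = 0.209, and 0.00098 with the block, range over 18 alternatives 0.00098 to 0.529). Ccnf, an F-box protein named a cyclin by sequence that binds no CDK, was at 2.48 ± 0.0643 and 2.41 ± 0.164 FPKM (-0.03, adjusted p = 0.689). Of the 5 genes 2 were higher and 0 lower (3 and 0 by unadjusted p at the same threshold, 4 and 0 with the block, 1 and 0 with median-of-ratios scaling). Ccnb1 and Ccnb2 have annotated pseudogenes that could share reads.

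Setting the roles beside each other within a library removes the scaling between libraries apart from the added 1. The mean log2(FPKM + 1) of the 5 S and M phase genes minus that of the 5 G1 genes was -3.46, -3.43 and -3.43 in controls 1 to 3 and -3.21, -3.09 and -3.13 in RCE libraries 1 to 3. The same difference against the 6 inhibitors was -1.29, -1.26 and -1.25 in control and -0.98, -0.87 and -0.88 with the extract. In both, all RCE libraries lay above all control libraries, so the S and M phase mean gained on the means of both G1 regulators and inhibitors. The inhibitor mean lost slightly to the G1 mean, with differences of -2.16, -2.17 and -2.18 in control and -2.23, -2.22 and -2.25 with the extract. This does not describe the inhibitors as a class: 2 of the 6 were called lower and 1 higher, and their median change was 0.01. These averages over chosen genes are a description and carry no test.

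**Figure D2:**
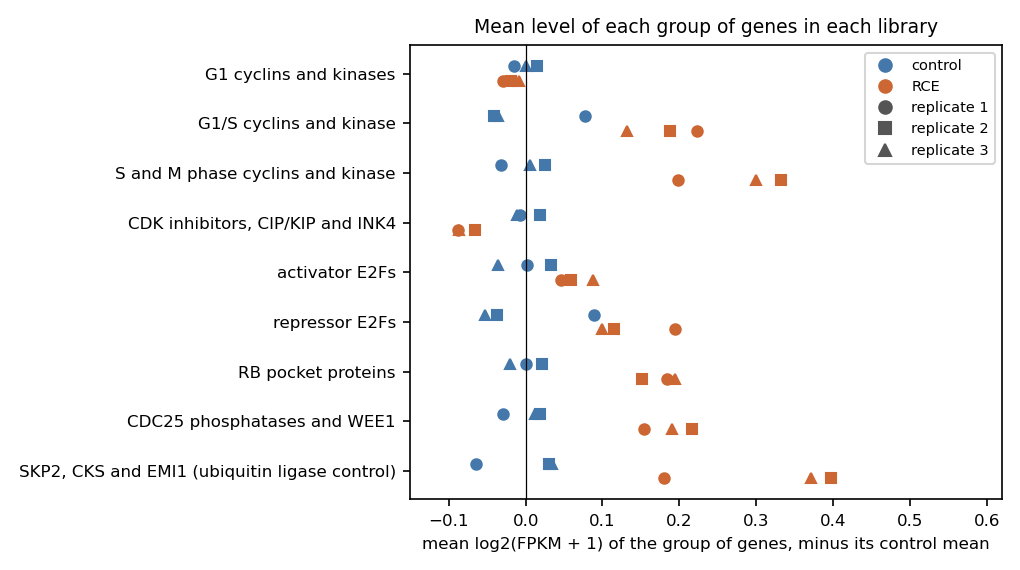
Mean log2(FPKM + 1) of the genes of each role in each library, minus the control mean of that role, on the horizontal axis (blue control, orange RCE, marker shape for the replicate number). The G1 genes of the 2 groups lie within about 0.05 of each other, the inhibitors lie lower with the extract, and the S and M phase genes lie higher in all 3 RCE libraries, least in replicate 1.

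Of the 6 inhibitors among the 38 genes, 2 fell and 1 rose. Cdkn1b (ENSMUSG00000003031, chromosome 6, 134920401 to 134925513), p27, which restrains cyclin E and cyclin A kinases, was at 14.4, 13.1 and 13.3 FPKM in control and 11.4, 10.1 and 9.93 FPKM in the matching RCE libraries. All RCE values lay below all control values (log2 change -0.35, SE 0.06, 95% interval -0.50 to -0.19, adjusted p = 0.0126). Cdkn1c (ENSMUSG00000037664, chromosome 7, 143458339 to 143461050), p57, an imprinted gene of the same family, was at 3.049, 2.502 and 2.445 FPKM in control and 1.94, 1.63 and 1.52 FPKM after extract, also without overlap (-0.44, SE 0.09, adjusted p = 0.014). Both were lower under every scaling tried. Both calls ended without RCE replicate 2 (adjusted p = 0.0618 for Cdkn1b and 0.0625 for Cdkn1c) and without RCE replicate 3 (0.0506 and 0.0521), and over the alternatives the changes ran from -0.43 to -0.31 and from -0.62 to -0.37.

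Of the INK4 genes, inhibitors of CDK4 and CDK6, 1 of 4 rose. Cdkn2b, p15, was at 40.9, 40.7 and 40.0 FPKM in control and 46.3, 47.8 and 48.1 FPKM after extract, without overlap (0.22, SE 0.04, adjusted p = 0.0122). Its call was lost under median-of-ratios scaling (0.13, adjusted p = 0.066) and without control replicate 2 (0.0534), control replicate 3 (0.0571), RCE replicate 2 (0.0687) or RCE replicate 3 (0.0589). Its neighbour on chromosome 4, Cdkn2a, whose row covers both p16 and the unrelated protein p19ARF made from the same locus, was at 55.3, 60.2 and 64.1 FPKM in control and 55.6, 61.4 and 58.7 FPKM after extract. The groups overlapped (-0.03, 95% interval -0.20 to 0.14, adjusted p = 0.801), though with the block and median-of-ratios scaling together it was called lower (-0.11, adjusted p = 0.0231, range over 19 alternatives 0.0231 to 0.983). Of summed INK4 FPKM, Cdkn2a took 56.5 ± 2.00% in control and 52.4 ± 0.797% with the extract, and Cdkn2b 38.3 ± 1.97% and 42.4 ± 0.861% (SD, n = 3). Cdkn2c (p18) and Cdkn2d (p19INK4D) were low, at 2.85 and 2.68 FPKM in control and 2.99 and 2.86 FPKM after extract, and did not pass (adjusted p = 0.379 and 0.709).

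**Figure D3:**
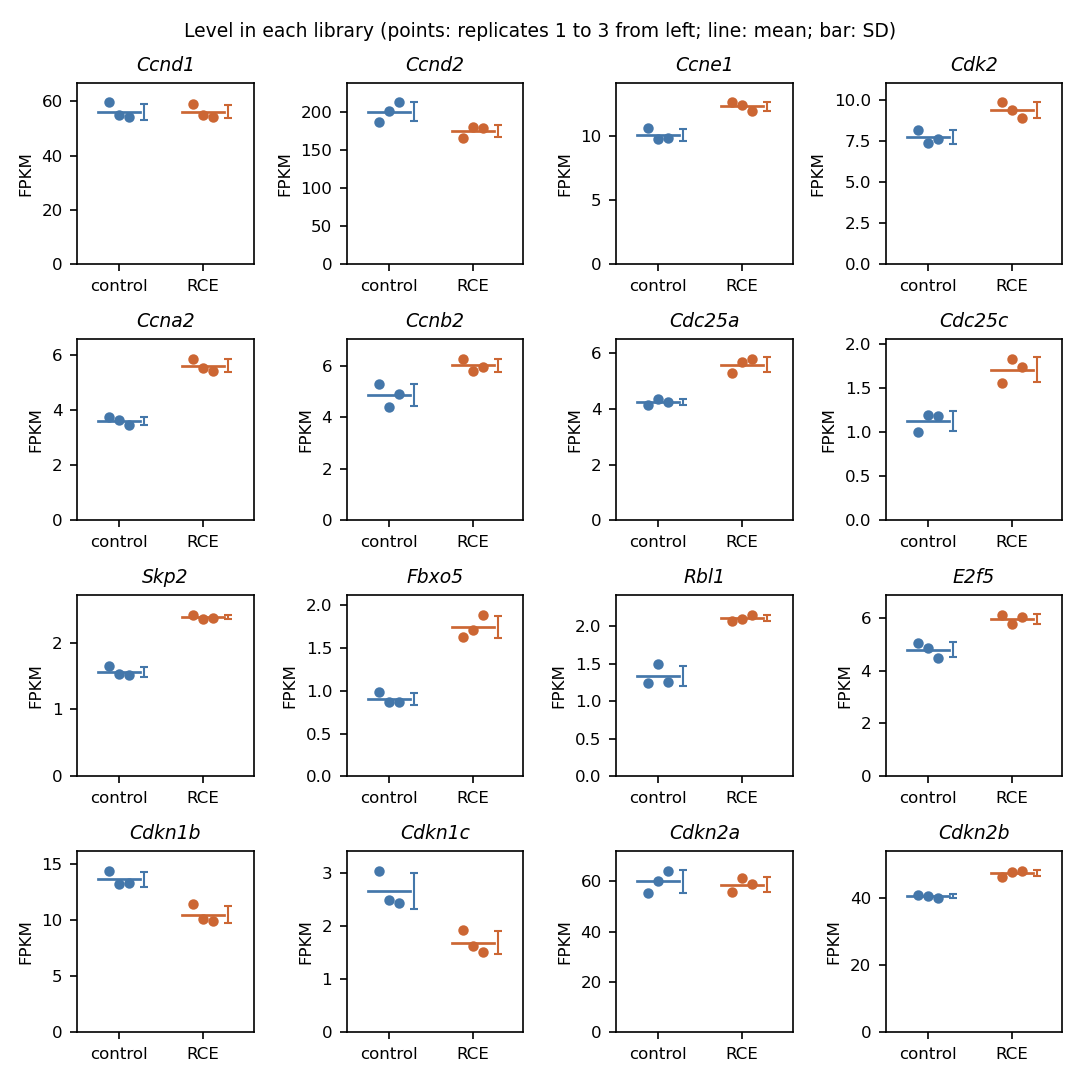
FPKM in each library for 16 genes, each panel from 0, with control in blue and RCE in orange, points for replicates 1 to 3 from left to right, a line at the mean and a bar of 1 SD. Ccnd1 and Cdkn2a overlap between groups, Ccnd2, Cdkn1b and Cdkn1c are lower in all 3 RCE libraries, and the other 11 genes are higher in all 3.

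Of the 8 E2F genes 5 were tested, and 1 of them, the repressor E2f5, was called. E2f1, an activator of S phase genes and itself an E2F target, was at 10.6, 10.1 and 9.48 FPKM in control and 11.1, 10.6 and 10.9 FPKM after extract, just overlapping (0.10, 95% interval -0.02 to 0.23, adjusted p = 0.191, and 0.0283 with the block, range over 19 alternatives 0.02 to 0.823). The low end of that range is from the array weights fit that did not converge. E2f3 was at 8.72 ± 0.334 and 8.78 ± 0.333 FPKM (0.01, adjusted p = 0.92), and E2f2 was low, at 0.115 to 0.244 FPKM, and was left out by the filter (0.08 with no filter, adjusted p = 0.135, and 0.0857 with the block as well). In limma, 0 of the 2 tested activators were higher and 0 lower (0 and 0 by unadjusted p at the same threshold, 1 and 0 with the block).

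Among the repressor E2Fs, E2f5, a partner of p130, rose from 5.04, 4.85 and 4.49 FPKM to 6.11, 5.75 and 6.02 FPKM, without overlap (0.27, SE 0.05, adjusted p = 0.0137). Its call was lost under median-of-ratios scaling (0.19, adjusted p = 0.0588), quantile normalization (0.091) and without control replicate 2 (0.05003) or RCE replicate 3 (0.0557). E2f4, the most abundant E2F and the main partner of p107 and p130 in resting cells, was at 34.5, 26.7 and 26.2 FPKM in control and 36.1, 28.2 and 27.7 FPKM after extract. Replicate 1 was highest in both groups, the change of 0.07 did not pass (adjusted p = 0.744) and with the block it was called higher (adjusted p = 0.0279), while its sign turned to -0.01 with median-of-ratios scaling (adjusted p = 0.974, range over 19 alternatives 0.0268 to 0.983). E2f6, which represses without binding RB proteins, was at 18.0, 18.5 and 19.1 FPKM in control and 15.4, 17.0 and 17.8 FPKM after extract, each RCE value below each control value. Its change of -0.14 did not pass (adjusted p = 0.148), and was called with the block (0.00514) and with median-of-ratios scaling (-0.22, adjusted p = 0.0363, range over 19 alternatives 0.000472 to 0.336).

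The atypical repressors E2f7 and E2f8, which are E2F targets that close the E2F pulse, were under 1 FPKM in every library and were left out by the filter. E2f7 was listed at 0.432, 0.361 and 0.331 FPKM in control and 0.756, 0.730 and 0.643 FPKM after extract, a mean 1.89-fold higher without overlap, on about 89.5 to 235.7 fragments a library. With no filter on low values, where 11.3% of 17334 genes were higher and 5.24% lower, its change was 0.31 (adjusted p = 0.00563). E2f8 was at 0.684, 0.479 and 0.501 FPKM and 0.863, 0.751 and 0.629 FPKM, overlapping (0.17 with no filter, adjusted p = 0.162, and 0.0163 with the block as well).

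The RB family changed in 1 of its 3 members. Rbl1 (ENSMUSG00000027641, chromosome 2, 157145893 to 157204534), p107, which is made mainly in dividing cells, was at 1.25, 1.49 and 1.26 FPKM in control and 2.07, 2.10 and 2.15 FPKM after extract. The lowest RCE library was well above the highest control library, and the mean rose 1.58-fold (log2 change 0.41, SE 0.05, 95% interval 0.29 to 0.54, adjusted p = 0.00348). Rb1, the retinoblastoma gene, was at 4.81, 4.71 and 4.83 FPKM in control and 5.12, 4.76 and 4.95 FPKM after extract, overlapping (0.04, 95% interval -0.06 to 0.14, adjusted p = 0.526). Rbl2, p130, the pocket protein of resting cells, was at 7.24 ± 0.223 and 7.69 ± 0.166 FPKM, without overlap (0.08, adjusted p = 0.234, and 0.0373 with array weights, a fit that stopped before reaching its convergence tolerance, range over 19 alternatives 0.0373 to 0.989). The share of p107 in the summed FPKM of the 3 pocket proteins went from 9.98 ± 1.04% to 14.3 ± 0.316% (SD, n = 3).

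The CDC25 phosphatases remove the inhibitory phosphates that WEE1 puts on CDKs. Cdc25a (ENSMUSG00000032477, chromosome 9, 109875579 to 109893895), which acts from G1 onwards, was at 4.14, 4.36 and 4.26 FPKM in control and 5.31, 5.68 and 5.82 FPKM after extract, without overlap (0.33, SE 0.05, adjusted p = 0.00497). Cdc25c, which acts at mitosis, was at 0.996, 1.19 and 1.18 FPKM in control and 1.55, 1.83 and 1.73 FPKM after extract, also without overlap (0.35, SE 0.06, adjusted p = 0.00905). Cdc25b was at 1.77 ± 0.12 and 2.00 ± 0.0201 FPKM, again without overlap (0.12, adjusted p = 0.104, and 0.0371 with the block, range over 18 alternatives 0.00479 to 0.936). Here too the low end is from the array weights fit that did not converge. The opposing kinase Wee1 was at 5.64, 6.20 and 5.84 FPKM in control and 5.67, 5.86 and 5.43 FPKM after extract, which overlapped (-0.05, 95% interval -0.17 to 0.07, adjusted p = 0.504). With the block and median-of-ratios scaling together Wee1 was called lower (-0.12, adjusted p = 0.0164, range over 19 alternatives 0.0164 to 0.845).

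Skp2 and Fbxo5 are F-box proteins that act on the degradation of cell cycle proteins, and both rose. Skp2 (ENSMUSG00000054115, chromosome 15, 9111985 to 9155425), the ubiquitin ligase subunit that marks p27 protein for destruction, was at 1.65, 1.53 and 1.52 FPKM in control and 2.42, 2.36 and 2.37 FPKM after extract. The spread within each group was small beside the difference (log2 change 0.40, SE 0.04, 95% interval 0.30 to 0.49, adjusted p = 0.00156). Fbxo5 (ENSMUSG00000019773, chromosome 10, 5799160 to 5805600), EMI1, an inhibitor of the anaphase-promoting complex, was at 0.989, 0.864 and 0.866 FPKM in control and 1.64, 1.71 and 1.89 FPKM after extract, on about 83.0 to 206.1 fragments a library. The RCE mean was 1.93-fold the control mean, with no overlap (0.53, SE 0.05, adjusted p = 0.00156).

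CKS proteins are small adaptors of CDKs, and Cks1b also serves SKP2 in recognising p27. Cks1b was at 17.6, 19.6 and 19.6 FPKM in control and 18.3, 21.4 and 19.9 FPKM after extract (0.06, adjusted p = 0.569), and was called higher in the array weights fit that did not converge (0.12, adjusted p = 0.0174, range over 19 alternatives 0.0174 to 0.942). Cks2 was at 7.60, 10.4 and 10.5 FPKM in control and 8.60, 13.9 and 12.9 FPKM after extract. Replicate 1 was lowest in both groups, so the groups overlapped although each RCE library was above the control library of its number (0.28, 95% interval -0.19 to 0.74, adjusted p = 0.346, and 0.00101 with the block, range over 19 alternatives 0.000576 to 0.677). Cks1b has an annotated retrotransposed copy that could share its reads.

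**Figure D4:**
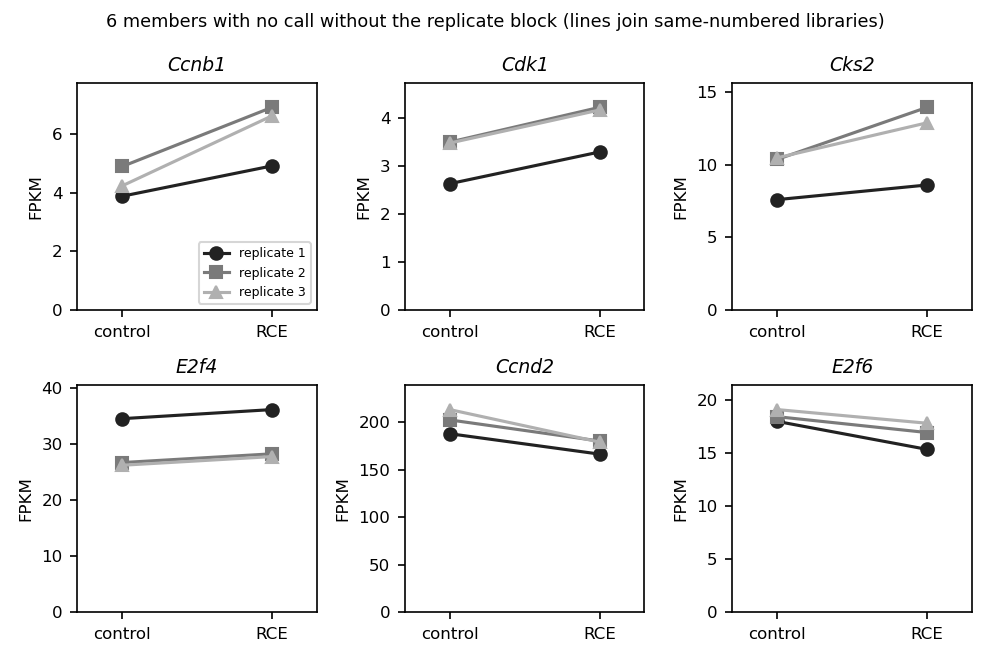
FPKM in control and RCE for 6 genes that did not pass without the replicate block and passed with it, each panel from 0, with a line for each replicate number (dark to light, 1 to 3). Replicate 1 lies below the other two for Ccnb1, Cdk1 and Cks2 and above them for E2f4, and within each number the lines of Ccnd2 and E2f6 fall while the others climb.

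Because the genes that rose include known E2F targets, promoters of some of the 38 genes are shown with the letters of E2F and related motifs. RefSeq promoters of GRCm38.p6, the assembly of mm10, from 250 bases before to 50 after a start, were found for 28 of the 38 genes. The E2F letters searched were TTTCCCGC, TTTGGCGC, TTTCGCGC and TTTGCCGC, the cell cycle homology region (CHR) letters TTTGAA, and the NF-Y box CCAAT, on both strands and with overlaps allowed. At 1 or more listed starts, E2F letters stood in 8 of the 28 genes, CHR letters in 11 and CCAAT in 20. Over 8569 genes kept in the fit, the shares were 4.85% for E2F, 13.5% for CHR and 42.9% for CCAAT, and over all 32851 promoters of the table they were 2.26%, 17.9% and 37.4%. Of the 8 matched genes called higher, 3 held E2F letters, 4 CHR letters and 5 CCAAT, and of the 16 matched genes not called, 3, 5 and 11. Ccne1 and E2f1, themselves E2F targets, held no E2F letters. These matches describe letters and do not show binding.

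Shown are 150 bases upstream of the start (for Cdk1, ending 26 bases before the RefSeq start, to keep out transcribed sequence) for genes of each kind, 5′ to 3′ on the gene's strand, with E2F, CHR and CCAAT letters in capitals. Cdc25a (chr9:109875429-109875578, plus strand), Rbl1 (chr2:157204535-157204684, minus strand), Cdk2 (chr10:128705052-128705201, minus strand), Cdk1 (chr10:69352939-69353088, minus strand) and Ccnb2 (chr9:70421555-70421704, minus strand) are a phosphatase, a pocket protein, a G1/S kinase and an S and M phase kinase and cyclin, and Cdkn1b (chr6:134920251-134920400, plus strand) is p27, which fell. Counted from the RefSeq start, E2F letters begin at -67 in Cdc25a, -18 in Rbl1, -140 in Cdk2 and -131 in Cdk1. Cdk1 also holds CHR letters at -71, and Ccnb2 holds 3 CCAAT boxes. The shown genes were picked and hold E2F letters more often than the matched genes as a whole. Cdk1 is among them although its change did not pass in limma without the block (adjusted p = 0.209).
Cdc25a: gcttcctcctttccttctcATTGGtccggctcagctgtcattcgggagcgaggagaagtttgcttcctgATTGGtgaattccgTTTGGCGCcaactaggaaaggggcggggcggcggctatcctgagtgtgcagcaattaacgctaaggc
Rbl1: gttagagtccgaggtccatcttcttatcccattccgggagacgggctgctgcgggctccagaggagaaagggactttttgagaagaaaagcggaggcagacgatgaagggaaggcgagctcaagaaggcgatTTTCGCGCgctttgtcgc
Cdk2: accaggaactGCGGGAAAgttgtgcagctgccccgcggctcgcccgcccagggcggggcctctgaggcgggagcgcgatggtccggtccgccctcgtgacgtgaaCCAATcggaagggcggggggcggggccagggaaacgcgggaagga
Cdk1: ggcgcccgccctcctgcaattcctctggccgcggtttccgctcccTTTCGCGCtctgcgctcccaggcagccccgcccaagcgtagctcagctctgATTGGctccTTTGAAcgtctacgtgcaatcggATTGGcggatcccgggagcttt
Ccnb2: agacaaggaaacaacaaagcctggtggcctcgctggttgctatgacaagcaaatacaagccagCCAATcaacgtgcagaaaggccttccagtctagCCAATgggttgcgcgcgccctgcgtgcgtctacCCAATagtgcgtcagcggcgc
Cdkn1b: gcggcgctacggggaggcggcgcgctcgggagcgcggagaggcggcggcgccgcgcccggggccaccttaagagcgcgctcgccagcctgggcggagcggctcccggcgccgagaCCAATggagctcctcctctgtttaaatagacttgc
The shown stretches of Ccnb2 and Cdkn1b hold CCAAT and neither of the other motifs. Ccnb2 does hold CHR letters elsewhere in the window searched, and Cdkn1b does not. A stretch without the letters says nothing about whether a factor binds there.

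Other cell cycle genes were taken from 8 lists chosen by function, with earlier results of these data known. Their counts are therefore a description and give no independent support to the pattern of the members. The shares of all genes to set beside them are 17.6% higher and 6.77% lower. They are 46.6% and 15.9% with the block, and 8.38% and 9.96% with median-of-ratios scaling. Of 21 classic E2F target genes of S phase, 3 of them members described above, 19 were tested, 14 were higher and 0 lower (17 and 1 with the block, 11 and 0 with median-of-ratios scaling), with a median change of 0.34. The replication helicase genes had the smallest p: Mcm3 averaged 6.50 ± 0.105 FPKM in control and 10.0 ± 0.334 after extract (SD, n = 3; change 0.56, adjusted p = 0.000616), Mcm2 changed by 0.45, Mcm5 by 0.62 and Mcm7 by 0.43. Of 14 mitotic kinases and CDK1 regulators, 13 were tested, 9 were higher and 0 lower (12 and 1 under the block), and the list median was 0.34. The Aurora A activator Bora went from 1.71 ± 0.0373 to 2.70 ± 0.186 FPKM (0.45, adjusted p = 0.00205), and Mastl (0.34), the checkpoint kinase Bub1 (0.33) and Aurora B (Aurkb, 0.37) followed. Mastl, Cdc14a and, in the S phase list, Cdc7 averaged under 1 FPKM in control and passed the filter through their RCE values, so their calls add no support to these counts. Of 5 genes used as indices of proliferation 4 were higher (5 with the block, 2 with median-of-ratios scaling), led by Top2a (5.65 ± 0.292 to 8.75 ± 0.57 FPKM, 0.55, adjusted p = 0.00225). Tk1 (called higher) and Pcna (not called) are also on the S phase list, so the counts of these lists are not separate. Mki67, the Ki-67 gene, went from 2.12 ± 0.381 to 3.12 ± 0.471 FPKM (0.40, adjusted p = 0.0457), a call that median-of-ratios scaling ended (adjusted p = 0.109).

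Of 9 E2F partners and genes of the MuvB complex, MYB and FOXM1, 8 were tested and 3 rose (8 with the block, 2 with median-of-ratios scaling). These were Lin9, a MuvB core subunit (0.40, adjusted p = 0.0054), and the E2F dimer partners Tfdp1 (31.4 ± 0.777 to 38.5 ± 1.46 FPKM, 0.29, adjusted p = 0.00847) and Tfdp2 (0.22, adjusted p = 0.0238). Of 15 ubiquitin ligase genes 2 rose and 0 fell (8 and 1 with the block), the anaphase activator Cdc20 (0.44, adjusted p = 0.00361) and Anapc10 (0.17, adjusted p = 0.0224), with a median of 0.07. The shares that rose are near those of all genes tested. Of 15 other cyclins and CDKs, 13 were tested, 1 rose and 1 fell (4 and 2 with the block), so a smaller share rose than over all genes tested. Ccng2, an atypical cyclin linked to cell cycle arrest, fell from 13.1 ± 0.904 to 7.15 ± 0.507 FPKM (-0.79, adjusted p = 0.00103). On this scale with 1 added, that was a larger change than that of any of the 35 tested members. The scale understates low genes: by ratio of means Ccng2 was 0.55-fold and the member Fbxo5 1.93-fold.

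Most genes on a list of upstream inputs to cyclin D moved the other way from the S phase genes. Whether they act on cyclin D in these cells was not tested. Of 10 upstream factors, 9 were tested and 7 fell, with 0 higher (8 lower and 0 higher with the block), and the median was -0.84. Fos went from 4.47 ± 0.154 to 0.937 ± 0.0607 FPKM (-1.50, adjusted p = 2.54e-05), Junb from 94.1 ± 16.7 to 20.4 ± 4.23 FPKM (-2.16), Egr2 changed by -1.08 and Egr1 by -1.64. Fos and Egr2 averaged under 1 FPKM after extract and passed the filter through their control values, so the same holds for their calls. Myc and Cdkn1a are named outside the rule on smallest p, after their values were seen. Myc was at 50.7 ± 10.2 and 53.7 ± 12.9 FPKM (0.07, adjusted p = 0.822), and Ccnd1 stood at 56.2 ± 2.98 and 56.2 ± 2.43 FPKM beside them. Of 8 growth-arrest genes 2 rose and 3 fell (3 and 4 with the block). Gas6 (-0.62) and Gas2 (-0.58) fell and Gas1 (0.47) and Trp53inp1 (0.32) rose. The CIP/KIP inhibitor Cdkn1a (p21) was far more abundant than p27 or p57, at 347 ± 8.41 FPKM in control and 369 ± 11.4 FPKM after extract, and its change of 0.09 did not pass (adjusted p = 0.26, and 0.0229 with the block). With median-of-ratios scaling that change was 0.00 to 2 decimals (-0.0005, adjusted p = 0.997), while p27 and p57 were lower with that scaling as without it.

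**Figure D5:**
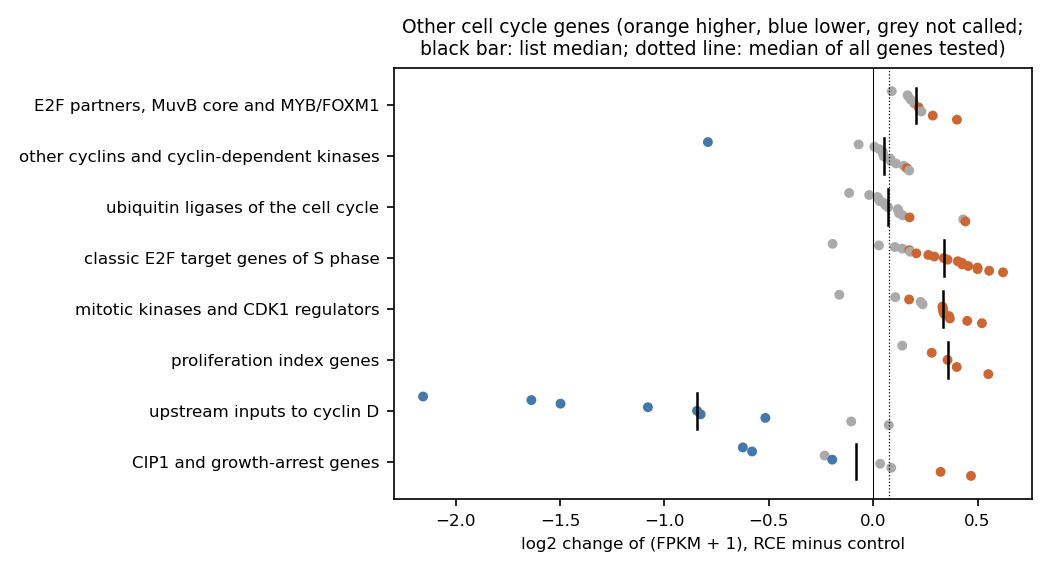
Log2 change of FPKM + 1, RCE minus control, for each tested gene of 8 lists of other cell cycle genes (orange higher, blue lower, grey not called), with a black bar at each list's median and a dotted line at the median of all genes tested, 0.08. S phase and mitotic lists sit to the right with medians of 0.34, and the upstream inputs to cyclin D to the left with a median of -0.84.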

How the data were processed

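RNA of 6 libraries was sequenced after TruSeq stranded mRNA preparation, per the labels' protocols. Per the submitters' processing notes the tools were STAR 2.5.4, Cufflinks and Cuffdiff 2.2.1 with the mm10 genome. The deposited values are FPKM of 21853 genes, all protein-coding in GENCODE M21, from which coordinates were taken. The strand setting of the counting was not given in the sources used here.

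Because these values are not counts, the 10870 genes averaging 1 FPKM or more were tested as log2(FPKM + 1) with limma 3.58.1 in R 4.3.3 (trend, no block), RCE against control, p-values adjusted by Benjamini-Hochberg and called below 0.05. The script was tested on simulated data. Depth was recovered from low values (0.02 to 0.5 FPKM): 100% of 367 to 404 values per library were whole fragments within 0.1, against a median of 16.09 to 17.72% at other depths. Fragment numbers are approximate, and low genes rest on fewer fragments and are less precise.

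Same-numbered control and RCE libraries carried correlated deviations from their group means (0.918, 0.62 and 0.681 for numbers 1, 2 and 3), so the numbers from the labels were taken to pair the libraries. RCE replicate 3 correlated with control replicate 2 at 0.771 and RCE replicate 2 with control replicate 3 at 0.724, so numbers 2 and 3 are not told apart by this check. Alternatives were another pseudocount (0.1 or 0.5), a minimum of 5 FPKM or none, median-of-ratios scaling, quantile normalization, GC correction, array weights, the replicate block, and libraries left out. The 38 genes and all gene lists were chosen with earlier results of these data known. Members were all described, and up to 4 genes with the smallest p were named in each other list, apart from Myc and Cdkn1a.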

Additional observations from a re-analysis of the deposited data

How the results depend on the processing

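Counts of called genes moved with the processing more than the direction of the called members. With the replicate block 5060 of 10870 genes were higher and 1730 lower (46.6% and 15.9%), with 18 and 4 of the 35 members tested (51.4% and 11.4%). The block changed no call of a member beyond those given above. With array weights, in a fit that stopped before its convergence tolerance was reached, the counts were 5047 and 1731, with 18 and 4 of the 35 members. Median-of-ratios scaling gave 911 higher and 1082 lower genes (8.38% and 9.96%), with 6 and 4 members (17.1% and 11.4%). Quantile normalization gave 785 higher genes, with 7 members higher. The block with median-of-ratios scaling gave 2867 and 3012 genes (26.4% and 27.7%), with 14 members higher and 8 lower. A minimum of 5 FPKM gave 867 and 485 genes, with 5 and 1 members, since fewer genes were tested. With both replicate 1 libraries dropped, 4360 genes were higher and 1481 lower (40.1% and 13.6%), with 4 members lower and the higher count given above. With no filter and the block, chosen after seeing the data, they were 4874 and 1909, with 17 and 4 of the 38 members, all of which were then tested. Leaving out 1 library at a time gave 677 to 2029 higher and 399 to 739 lower genes, and 6 to 11 higher and 0 to 3 lower members. The cause of these moves was otherwise not tested.

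The sign turned for 12 members that were not called without the block, in 40 of their values. With median-of-ratios scaling, with and without the block, the change was -0.0414 for Cdk4, -0.0327 for Ccne2, -0.0124 for Cdkn2c, -0.0695 for E2f3, -0.0100 for E2f4, -0.0326 for Rb1, -0.0012 for Rbl2 and -0.0188 for Cks1b. With quantile normalization it was 0.0256 for Ccnd1, -0.0728 for Ccne2, -0.0525 for Cdkn2c, -0.0314 for Cdkn2d, -0.0683 for E2f3, -0.0559 for Rb1 and -0.0104 for Rbl2. GC correction gave 0.0055 for Ccnd1, -0.0229 for Ccne2 and 0.0046 for Cdkn2a. Array weights gave 0.0088 for Ccnd1 and 0.0548 for Ccnf, and leaving out both replicate 1 libraries gave 0.0071 and 0.0138. With 1 library left out, Ccnd1 ran from -0.0354 to 0.0417, Ccne2 from -0.0054 to 0.0716, Cdkn2a from -0.0844 to 0.0208, E2f3 from -0.0195 to 0.0368 and E2f4 from -0.0446 to 0.1980.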
